A study of Mus musculus with 88 samples.

Results

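Nuclear RNA of neurons from the medial prefrontal cortex (mPFC) was compared between mice taken 10 minutes after contextual fear conditioning (CFC10) and mice that stayed in the home cage (naive). The comparison rests on 6 libraries of the 88 samples in the series: 3 CFC10 and 3 naive libraries of NeuN+ nuclei, chosen by the region, nuclear fraction and treatment that the sample labels give. All animals were male C57BL/6J mice of 4 months with no transgene. CFC pairs a new context with foot shocks, and the 10 minutes count from placement in that context. For comparison, 3 libraries of mPFC NeuN+ nuclei at 30 minutes (CFC30), 6 libraries of mPFC NeuN- nuclei (3 CFC10, 3 naive) and 8 libraries of hippocampal NeuN+ nuclei (4 CFC10, 4 naive) were read. NeuN, encoded by Rbfox3, is a nuclear protein of most neurons, so the NeuN- fraction holds mainly glia and vascular cells. The labels do not say whether replicates are separate animals, and p-values therefore measure only the spread between these libraries.

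Early response genes (ERGs) are transcribed within minutes of neuronal firing, because their promoters are held ready and need no newly made protein. Calcium entry and cAMP act through kinases on CREB, which binds the cAMP response element (CRE), and MAPK signalling acts through SRF, which binds the CArG box. The first products are transcription factors of the Fos, Egr and Nr4a families, feedback inhibitors of the kinases, and effectors that act at synapses, such as Arc. In nuclei, reads from introns and exons follow transcription more closely than the mature mRNA of the whole cell does.

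The start regions of genes at the head of the response are shown because these elements are the ones through which CREB and SRF are known to act. The largest rises were taken from genes that passed the test without overlap of the groups and averaged 50 counts or more in one group, which left out Egr2, Egr4, Ccn1 and Ier2. RefSeq promoters of the GRCm38.p6 build (250 bases before to 50 after the start) were available for 9 of the 15 genes with the largest rises, and 7 of these held the CRE core TGACG on either strand. Capitals mark that core, the full CRE TGACGTCA in Btg2, and a pair of adjacent CArG boxes in Dusp5. The windows run 5′ to 3′ on the strand of the gene.
Btg2: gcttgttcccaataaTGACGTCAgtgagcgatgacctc
Npas4: cgttcgaCGTCAcgggaTGACGtcggaag
Dusp5: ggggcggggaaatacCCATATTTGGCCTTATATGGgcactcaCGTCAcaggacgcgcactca
Junb: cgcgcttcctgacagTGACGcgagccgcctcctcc
Fosb: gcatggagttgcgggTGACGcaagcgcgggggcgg
Nr4a2: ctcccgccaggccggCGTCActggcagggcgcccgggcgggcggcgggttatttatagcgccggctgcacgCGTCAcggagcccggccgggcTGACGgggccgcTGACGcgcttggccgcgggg
Fos: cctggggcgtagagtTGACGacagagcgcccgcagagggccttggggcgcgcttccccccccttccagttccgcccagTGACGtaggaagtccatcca
These windows lie at chr1:134079299-134079336 (Btg2, minus strand), chr19:4990129-4990157 (Npas4, minus strand), chr19:53529048-53529109 (Dusp5, plus strand), chr8:84978835-84978869 (Junb, minus strand), chr7:19310086-19310120 (Fosb, minus strand), chr2:57124095-57124218 (Nr4a2, minus strand) and chr12:85473746-85473843 (Fos, plus strand). All lie upstream of the RefSeq start, but the Npas4 window and 1 base of the Dusp5 window are inside exons of the GENCODE vM21 annotation. Of all 32851 promoters of that table, 20.8% held TGACG, 1.79% held the full CRE and 1.63% held a CArG box. Counted per gene, 37.4% of the 8817 tested genes with a promoter held TGACG, 3.86% the full CRE and 1.37% a CArG box. The short core alone is thus common. A match of letters describes the sequence and does not show that a factor was bound. Only 803 of the 1063 genes that rose had a promoter in the table (75.5%), which is under 80%, so a comparison of motif shares between gene groups was void and none is given.

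Among the 15 largest rises was 1700016P03Rik, the host gene of the miR-212/132 cluster, whose 3p miRNAs are known CREB-dependent regulators of dendrite growth. Their mature sequences, with the seed (bases 2 to 8) in capitals, show that both 3p arms carry the same seed.
mmu-miR-132-3p: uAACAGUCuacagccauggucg
mmu-miR-212-3p: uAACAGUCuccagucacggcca
They lie on the plus strand of chromosome 11, at chr11:75173723-75173744 and chr11:75173443-75173464, inside the gene body of 1700016P03Rik (chr11:75172560-75177633). The libraries measured the host transcript and not the mature miRNAs.

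Library totals were 12093117 to 14732898 counts in CFC10 and 11612058 to 12395579 in naive NeuN+ nuclei. Rbfox3 had 1914.0, 1747.9 and 1842.5 CPM (counts of the gene scaled to a common library total) in CFC10 and 1742.5, 1650.2 and 1840.7 CPM in naive nuclei. The summed level of 12 oligodendrocyte markers was 1.90 to 1.98 FPKM (CPM per kilobase of gene body) in CFC10 and 1.20 to 1.48 FPKM in naive NeuN+ nuclei, against 201 to 218 FPKM in naive NeuN- nuclei, and 12 microglial markers stood at 0.974 to 1.11 FPKM in CFC10 and 1.01 to 1.26 FPKM in naive nuclei, against 93.2 to 96.0 FPKM in NeuN- nuclei. Astrocyte markers stood at 6.14 to 6.87 FPKM in CFC10 and 5.71 to 6.24 FPKM in naive NeuN+ nuclei, against 116 to 133 FPKM in NeuN- nuclei. Glial markers were thus far lower in NeuN+ than in NeuN- nuclei in both conditions, though not at 0. Among the oligodendrocyte genes, Mbp had 147, 107 and 123 CPM in CFC10 and 56.5, 72.9 and 76.6 CPM in naive nuclei. The mean log2 level of 9 excitatory neuron markers was 1.54 to 1.60 in CFC10 and 1.37 to 1.40 in naive nuclei, and that of 6 upper layer markers was -0.20 to -0.10 in CFC10 and -0.01 to 0.04 in naive nuclei. Pan-neuronal markers stood at 1.59 to 1.60 in CFC10 and 1.49 to 1.52 in naive nuclei. For these lists and for choroid plexus markers the exact two-sided permutation test gave p = 0.1, the smallest value that 3 against 3 libraries allow. The upper layer difference was -0.18, and -0.08 with a pseudocount of 1 FPKM in place of 0.1. In bulk nuclei, a different share of a cell type and a different amount of RNA per cell cannot be told apart.

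At 10 minutes after CFC, 1063 of 12987 tested genes were higher and 813 were lower in mPFC NeuN+ nuclei (edgeR quasi-likelihood test, adjusted p under 0.05), which is 8.19% and 6.26% of the genes tested. Most changes were small: the risen genes had a median log2 fold change of 0.36 and the fallen genes of -0.30, with 68 rises and 13 falls of more than 2-fold. All CFC10 libraries lay above all naive libraries for 1015 of the 1063 risen genes, and below them for 770 of the 813 fallen genes. The calls were made on these same libraries, so the separation largely follows from the call and adds no support to it. Its share over all genes tested was not computed. The median over all genes tested was 0.01. Without replicate 1 of the naive group the count of fallen genes was 477, and that of risen genes was 715.

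**Figure D1:**
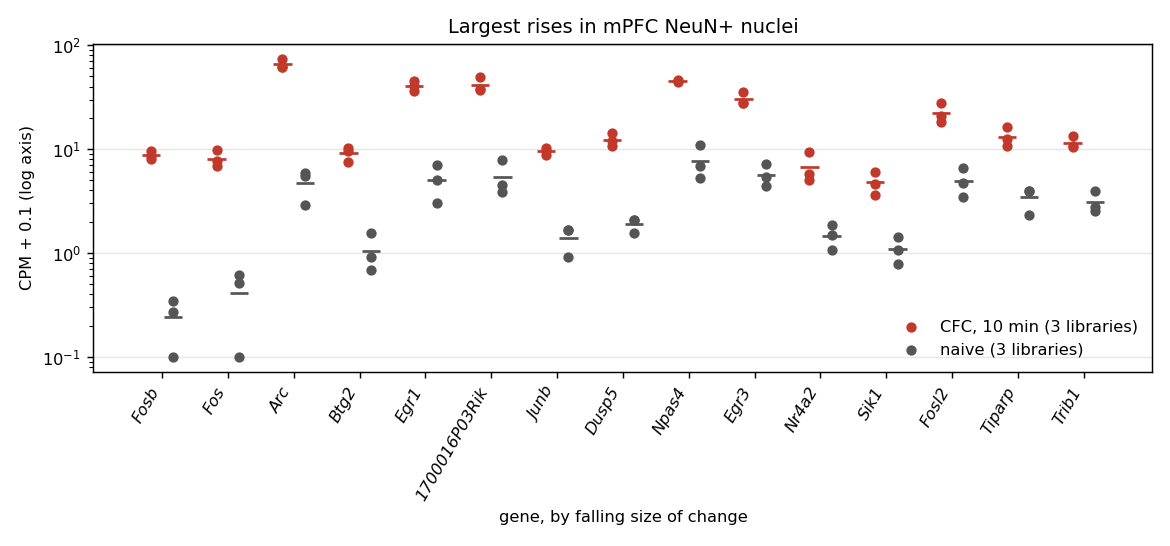
Level of the 15 genes with the largest rises in mPFC NeuN+ nuclei, in CPM plus 0.1 on a log axis. Each point is 1 library (3 CFC10, 3 naive) and the bar is the mean. The genes were chosen so that all CFC10 points lie above all naive points, and they run from Fosb (log2 fold change 5.87) to Trib1 (1.93).

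The AP-1 subunits, which pair a Fos with a Jun protein to bind DNA, held the largest rise. Of 6 tested members 4 rose and none fell, with a median log2 fold change of 2.51, against 0.01 over all genes tested. Fosb and Fos averaged 0.019 and 0.092 FPKM in naive nuclei, under the limit of 0.2 FPKM, and entered the test through their level after CFC. A gene that was low and did not rise was left out, which favours rises in the counts and medians of this and the other lists. Fosb had 9.59, 8.55 and 7.89 CPM in CFC10 and 0.172, 0.249 and 0 CPM in naive nuclei, a log2 fold change of 5.87 ± 0.35 (SE, adjusted p = 2.5e-11). In naive nuclei the gene was therefore near the limit of detection, and after CFC it was plainly transcribed in every library. Fos had 9.67, 6.86 and 7.50 CPM in CFC10 and 0.517, 0.415 and 0 CPM in naive nuclei (log2 4.66 ± 0.33, adjusted p = 5.6e-10). Junb, which often acts as a weaker partner than Jun, had 10.3, 8.62 and 9.44 CPM in CFC10 and 1.55, 1.58 and 0.807 CPM in naive nuclei (log2 2.84 ± 0.18). Fosl2, a later-acting Fos relative, had 27.6, 18.3 and 20.7 CPM in CFC10 and 6.54, 4.65 and 3.39 CPM in naive nuclei (log2 2.19 ± 0.18). The partners Jun (log2 0.05) and Jund (log2 0.44) did not pass the test. Fosl1, Atf3 and the Batf genes lay under the expression filter, and Fosl1 had 12 counts over the CFC10 libraries and 0 over the naive libraries.

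The Egr zinc finger factors, which bind GC-rich sites and drive later plasticity genes, rose with their corepressor Nab2. Of 6 tested members of this list 5 rose and none fell (median log2 2.55), and the exception was Nab1 (log2 0.11). Egr1 had 36.0, 45.1 and 40.1 CPM in CFC10 and 6.98, 4.98 and 2.90 CPM in naive nuclei (log2 3.04 ± 0.15, adjusted p = 2.0e-12). Egr3 had 35.7, 27.5 and 27.8 CPM in CFC10 and 4.31, 7.05 and 5.24 CPM in naive nuclei (log2 2.44 ± 0.13). Both were separated by a wide gap from every naive library. Egr2 had 140 counts over the CFC10 libraries and 3 over the naive libraries, a ratio of 42.3 after scaling to library totals, with a 95% exact interval of 14.2 to 208 that covers counting error only. Nab2, which binds Egr proteins and limits their activity, had 17.7, 13.4 and 13.3 CPM in CFC10 and 8.53, 9.04 and 7.26 CPM in naive nuclei (log2 0.83 ± 0.12). Nab2 overlaps the tested gene Stat6 on the opposite strand, which rose too (log2 0.54), and the strand setting of the counts is not stated in the sources used here.

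All 3 Nr4a orphan nuclear receptors rose, transcription factors that need no ligand and are tied to memory consolidation. Nr4a2 had 9.34, 5.70 and 4.95 CPM in CFC10 and 1.38, 1.74 and 0.968 CPM in naive nuclei (log2 2.27 ± 0.25, adjusted p = 1.2e-06). Nr4a3 had 75.6, 46.8 and 44.0 CPM in CFC10 and 20.2, 17 and 14.5 CPM in naive nuclei (log2 1.68 ± 0.15). For both genes replicate 1 of the CFC10 group was the highest library by a clear margin. Nr4a1 was the most even of them across libraries, with 108, 107 and 103 CPM in CFC10 and 43.0, 41.5 and 35.8 CPM in naive nuclei (log2 1.40 ± 0.07, adjusted p = 2.2e-12).

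Of 14 other early response genes that passed the filter, 10 rose and none fell, with a median log2 fold change of 1.07. This list is named for transcription factors but also holds other regulators, such as Trib1. Npas4, a neuron-specific factor that responds to calcium entry and shapes inhibitory synapses, had 44.0, 45.0 and 46.3 CPM in CFC10 and 10.9, 6.72 and 5.16 CPM in naive nuclei (log2 2.58 ± 0.14, adjusted p = 3.1e-12). The CFC10 libraries differed by little, and naive replicate 1 was the highest naive library. Trib1, a pseudokinase that steers protein degradation, had 13.1, 10.4 and 10.6 CPM in CFC10 and 3.88, 2.66 and 2.42 CPM in naive nuclei (log2 1.93 ± 0.16). Klf10, a zinc finger factor of the TGF-β pathway, had 13.4, 12.5 and 11.8 CPM in CFC10 and 3.88, 4.23 and 3.63 CPM in naive nuclei (log2 1.68 ± 0.12), and Csrnp1 rose by a log2 value of 1.55 ± 0.14. Ier3, Crem, Fbxo33 and Klf6 did not pass the test, with log2 values of 1.12, 0.26, 0.25 and -0.31. Myc, Maff, Klf2, Klf4, Irf1 and Zfp36 were under the filter.

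The activity-regulated synaptic and secreted effectors rose broadly: 21 of 26 tested members rose and none fell, at a median log2 fold change of 0.65. Arc, whose protein removes AMPA receptors from synapses, was at 73.7, 61.6 and 61.4 CPM in CFC10 and at 5.77, 5.39 and 2.82 CPM in naive nuclei (log2 3.82 ± 0.13, adjusted p = 1.0e-15). It had the smallest adjusted p of the 15 largest rises. Nptx2, a secreted pentraxin that gathers AMPA receptors, had 18.3, 21.2 and 20.6 CPM in CFC10 and 6.20, 9.63 and 6.94 CPM in naive nuclei (log2 1.40 ± 0.13). Homer1, a postsynaptic scaffold whose short form Homer1a is made on activity, had 462, 432 and 494 CPM in CFC10 and 215, 261 and 245 CPM in naive nuclei (log2 0.95 ± 0.06). Ntrk2, the receptor of BDNF, had 1660.7, 1660.4 and 1798.2 CPM in CFC10 and 1132.8, 1070.0 and 1044.4 CPM in naive nuclei (log2 0.66 ± 0.05, adjusted p = 7.8e-10). Both changed by a smaller factor than Arc, with a smaller error. Bdnf, chosen after its values were seen, rose by 0.82 ± 0.11. Inhba, Arl5b, Scg2, Syt4 and Amigo3 did not pass the test.

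The feedback inhibitors of MAPK signalling rose almost as a class, with 11 of 12 tested members up, none down, and a median log2 fold change of 0.64. Dusp5, a nuclear phosphatase that acts on ERK, had 14.1, 10.7 and 11.8 CPM in CFC10 and 1.98, 1.99 and 1.45 CPM in naive nuclei (log2 2.74 ± 0.17, adjusted p = 9.8e-11). Dusp6, the cytoplasmic ERK phosphatase, had 11.5, 9.77 and 8.90 CPM in CFC10 and 3.62, 2.90 and 2.90 CPM in naive nuclei (log2 1.67 ± 0.14). Dusp14, another dual specificity phosphatase, had 59.8, 56.3 and 59.2 CPM in CFC10 and 28.3, 31.6 and 32.5 CPM in naive nuclei (log2 0.92 ± 0.07), and Spred1, which holds back Ras and Raf, rose by 0.57 ± 0.06. Dusp8 was the tested member that did not pass (log2 0.21). Dusp1, the best known of these phosphatases, fell under the filter because its annotated gene body spans 56539 bases. Without the filter it had 5.71, 6.99 and 6.27 CPM in CFC10 and 1.72, 1.49 and 0.807 CPM in naive nuclei, a log2 fold change of 2.26 ± 0.21.

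The growth arrest genes of the Btg, Tob and Gadd45 families followed the same course, with 6 of 8 tested members up and none down (median log2 1.38). Btg2, which recruits the deadenylase that shortens mRNA tails, had 10.1, 9.5 and 7.43 CPM in CFC10 and 1.46, 0.581 and 0.807 CPM in naive nuclei (log2 3.24 ± 0.23, adjusted p = 6.2e-10). The CFC10 range and the naive range were far apart. Cdkn1a, the cell cycle inhibitor p21, had 4.3, 2.65 and 3.02 CPM in CFC10 and 1.03, 1.41 and 0.484 CPM in naive nuclei (log2 1.74 ± 0.29), and Gadd45b, which takes part in DNA demethylation, rose by 1.80 ± 0.36 from few counts. Tob2 rose by 0.96 ± 0.15. DESeq2 called 3 of these genes.

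Of 25 genes of cAMP and CREB signalling, 9 rose and 1 fell, and the median log2 fold change of 0.11 was small beside that of the ERGs. The miRNA host gene 1700016P03Rik had 49.2, 36.6 and 38.1 CPM in CFC10 and 4.39, 7.80 and 3.79 CPM in naive nuclei (log2 2.94 ± 0.15, adjusted p = 2.2e-12). Sik1, a salt-inducible kinase that restrains CREB coactivators, had 5.95, 4.55 and 3.56 CPM in CFC10 and 0.689, 1.33 and 0.968 CPM in naive nuclei (log2 2.21 ± 0.25). Its relative Sik2 had 174, 144 and 164 CPM in CFC10 and 92.1, 112 and 110 CPM in naive nuclei (log2 0.62 ± 0.08). Pde10a, a phosphodiesterase that degrades cyclic nucleotides and is most abundant in striatal neurons, had 2204.1, 2067.2 and 2835.0 CPM in CFC10 and 1367.7, 1526.6 and 1401.2 CPM in naive nuclei (log2 0.73 ± 0.08). Inhibitors and degraders stood among the members that rose, of which not all are named here. Creb1, Crebbp, Crtc1 and Adcy1, picked after their values were seen, had log2 values of -0.02, 0.03, 0.04 and -0.02 and did not pass. Sik2 overlaps the tested gene Ppp2r1b on the opposite strand, which rose too (log2 0.47), so reads could have been mixed. The 16 markers of striatal neurons, which include Pde10a, had a mean log2 level of -1.63 to -1.60 in CFC10 and -1.63 to -1.62 in naive nuclei. Their summed level was 9.22 to 10.5 FPKM in CFC10 and 7.59 to 7.95 FPKM in naive nuclei. In NeuN- nuclei Pde10a rose as well (log2 1.56 ± 0.20). The part of striatal neurons in the Pde10a value was not tested.

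**Figure D2:**
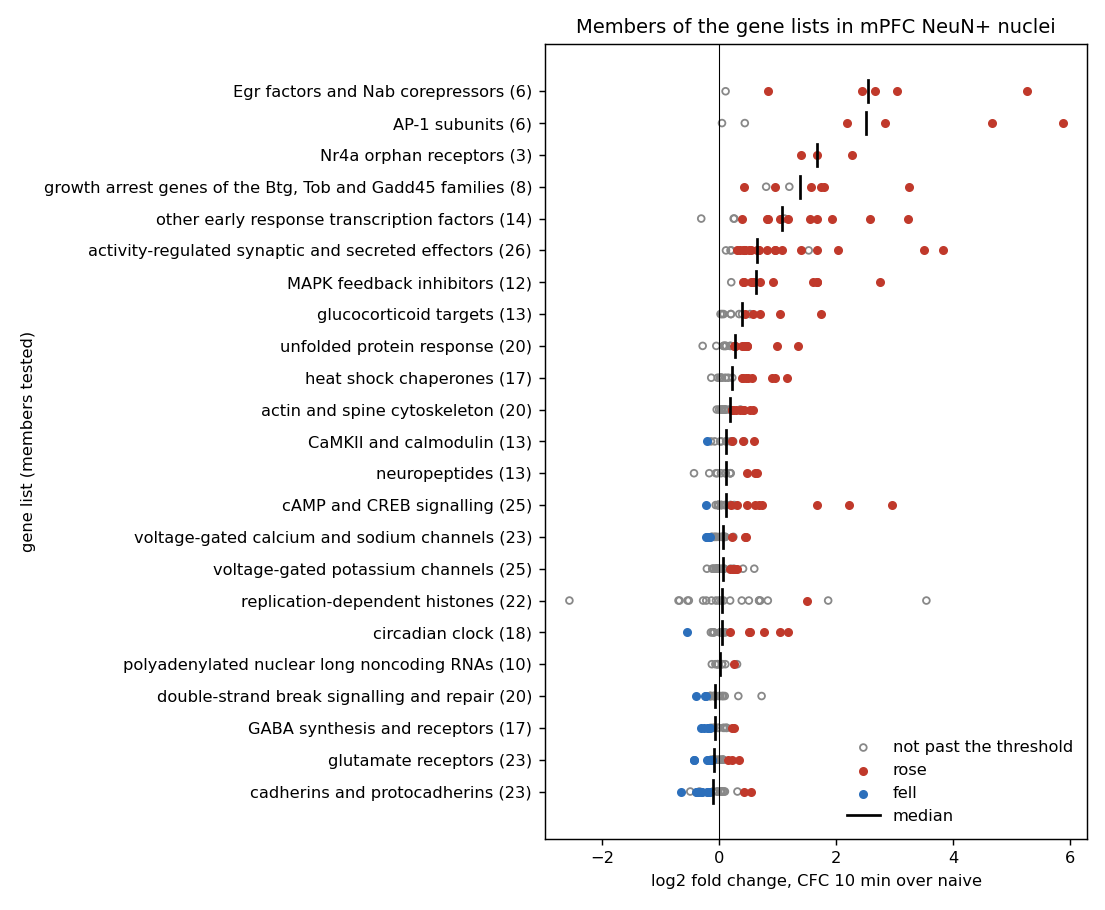
Log2 fold change of CFC10 over naive in mPFC NeuN+ nuclei for each tested member of 23 gene lists, with the number of members tested in parentheses. Filled points passed the test (red rose, blue fell), open points did not, and the bar is the median, which was highest for the Egr and Nab list (2.55) and lowest for the cadherins (-0.10). Over all genes tested 8.19% rose and 6.26% fell.

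Chaperone genes rose in part. Of 17 tested heat shock chaperones 8 rose and none fell (median log2 0.22), and of 20 tested genes of the unfolded protein response 11 rose and none fell (median log2 0.26). Hspa8, the constitutive cytosolic Hsp70, had 66.6, 59.1 and 56.5 CPM in CFC10 and 28.2, 33.0 and 35.4 CPM in naive nuclei (log2 0.91 ± 0.08, adjusted p = 2.8e-08). Dnajb5, a co-chaperone of Hsp70, had 74.6, 57.2 and 49.9 CPM in CFC10 and 30.5, 35.8 and 27.3 CPM in naive nuclei (log2 0.95 ± 0.11). Hsp90ab1 rose by 0.40 ± 0.07, Hsph1 by 0.56 ± 0.09 and Dnaja1 by 0.49 ± 0.08. The classic stress-inducible genes Hspa1a and Hspa1b held few counts, with 8 and 5 over the CFC10 libraries and 5 and 4 over the naive libraries. How reads that match both genes were counted is not stated in the sources used here, so these counts do not show that the genes were silent. In the endoplasmic reticulum list, Hspa5 (BiP) had 27.9, 26.8 and 34.2 CPM in CFC10 and 19.9, 22.9 and 24.4 CPM in naive nuclei (log2 0.40 ± 0.10, adjusted p = 0.0081), Xbp1 rose by 0.48 ± 0.12, Calr by 0.26 ± 0.07 and Pdia6 by 0.46 ± 0.09. The call for Hspa5 was lost without replicate 1 of the naive group or replicate 3 of CFC10 (adjusted p = 0.061 and 0.074), that for Calr without naive replicate 1 (adjusted p = 0.082), and without that library 6 genes of the list rose in place of 11. Ddit3 (CHOP) is annotated as a pair of overlapping gene IDs with log2 values of 1.35 and 1.00, so reads could have been split between them.

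Of 13 tested glucocorticoid targets 5 rose and none fell (median log2 0.39). Those that rose were Cdkn1a, Per1, Errfi1, Klf9 and Zbtb16, of which Cdkn1a, Per1 and Errfi1 also stand in the growth arrest, clock and MAPK lists. Per1 had 76.1, 53.3 and 56.0 CPM in CFC10 and 33.8, 28.5 and 27.8 CPM in naive nuclei (log2 1.03 ± 0.10, adjusted p = 1.6e-07), and Klf9 had 57.0, 57.6 and 53.2 CPM in CFC10 and 37.6, 33.9 and 41.1 CPM in naive nuclei (log2 0.57 ± 0.07). Sgk1, a kinase induced by corticosterone in many tissues, had 108, 117 and 112 CPM in CFC10 and 110, 108 and 100 CPM in naive nuclei, and the groups overlapped (log2 0.08 ± 0.05, adjusted p = 0.39). Fkbp5 and Glul, with log2 values of 0.39 and 0.05, did not pass the test, and Ddit4 was under the filter. Of 18 circadian clock genes 6 rose and 1 fell (median log2 0.05). Bhlhe40, a repressor of clock output, had 17.4, 14.9 and 16.5 CPM in CFC10 and 6.63, 6.14 and 8.63 CPM in naive nuclei (log2 1.18 ± 0.12), and Nr1d1 rose by 0.52 ± 0.08. The core clock drivers Clock and Arntl had log2 values of 0.04 and 0.02 and did not pass.

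Receptors of the principal transmitters changed little and in both directions. Of 23 tested glutamate receptor genes 3 rose and 7 fell (median log2 -0.09), and of 17 genes of GABA synthesis and reception 2 rose and 6 fell (median log2 -0.08). The shares over all genes tested were 8.19% risen and 6.26% fallen. Falls were more frequent among long genes, as given below, and the part of gene length in these counts was not tested. The presynaptic metabotropic receptor gene Grm2 had 14, 15.3 and 14.5 CPM in CFC10 and 20.2, 18 and 20.5 CPM in naive nuclei (log2 -0.43 ± 0.09, adjusted p = 0.0014), and Grm3 had 443, 435 and 409 CPM in CFC10 and 679, 510 and 540 CPM in naive nuclei (log2 -0.43 ± 0.07). Grin2a, an NMDA receptor subunit, rose by 0.22 ± 0.04 with no overlap between groups. In the GABA list the metabotropic subunits Gabbr1 and Gabbr2 rose by 0.22 ± 0.05 and 0.26 ± 0.04, while the calls that fell were subunits of the ionotropic receptor, among them Gabra3 (log2 -0.26 ± 0.05). Without naive replicate 1 the falls numbered 3 among glutamate receptors and 2 among GABA genes, and without CFC10 replicate 1 they numbered 4 and 2.

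Ion channels and calcium signalling moved by small steps. Of 25 voltage-gated potassium channels 6 rose and none fell (median log2 0.06), among them Kcnd3 (log2 0.31 ± 0.06). DESeq2, and the fit without naive replicate 1, called 3 of them. Of 23 calcium and sodium channel genes 3 rose and 4 fell. Among the rises, the auxiliary subunit gene Cacnb1 was at 92.3, 79.6 and 72.2 CPM in CFC10 and 57.0, 60.2 and 61.5 CPM in naive nuclei (log2 0.45 ± 0.07). The pore subunits Scn1a and Scn3a fell by a log2 value of 0.20 and 0.23, calls that were lost without naive replicate 1, and the falls of this list numbered 1 without CFC10 replicate 1 and 2 without naive replicate 1 or 3. Among 13 genes of CaMKII and calmodulin signalling 3 rose and 1 fell, with Camkk1 (log2 0.60 ± 0.12) and Calm2 (0.40 ± 0.06) up and Camk2a (0.12) not passing. The list had 5 rises without naive replicate 3, and its falls numbered 0 without CFC10 replicate 1 and 2 without CFC10 replicate 3.

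Some genes of secreted peptides and of the spine cytoskeleton rose. Of 13 tested neuropeptide genes 3 rose and none fell: Vgf had 32.7, 26.6 and 28.5 CPM in CFC10 and 17.7, 21.1 and 17 CPM in naive nuclei (log2 0.65 ± 0.09), Cck rose by 0.60 ± 0.09 and Chgb by 0.47 ± 0.05. Npy, Sst, Vip and Crh, peptides of interneurons, had log2 values between -0.03 and 0.11 and did not pass. Of 20 tested actin and spine genes 9 rose and none fell (median log2 0.19). Actb had 23.6, 26.7 and 25.4 CPM in CFC10 and 16.0, 17.3 and 19.0 CPM in naive nuclei (log2 0.53 ± 0.08), the Arp2/3 subunit Arpc3 rose by 0.58 ± 0.09, and Baiap2, which links Rac to actin, by 0.43 ± 0.06. DESeq2, and the fit without naive replicate 1, called 5 members of this list.

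Of 20 tested genes of double-strand break signalling and repair, none passed the test as higher, with values up to a log2 of 0.72, and 3 fell (median log2 -0.08): Xrcc5 (Ku80) had 22.2, 23.4 and 23.1 CPM in CFC10 and 30.2, 30.6 and 29.0 CPM in naive nuclei (log2 -0.39 ± 0.09, adjusted p = 0.0026), and the kinase genes Atr and Atm had log2 values of -0.24 ± 0.06 and -0.23 ± 0.07. The Atr and Atm calls did not hold under every alternative, and without CFC10 replicate 1 the list had 1 fall, and without naive replicate 3 it had 1 rise. In the nuclear lncRNA list 1 of 10 tested members rose and none fell: Lncpint, at a log2 value of 0.25 ± 0.06. Malat1 and Meg3, with log2 values of -0.03 and -0.02, did not pass. Of 22 histone genes 1 rose, Hist2h2bb, from few counts, and that call was lost with DESeq2 and without any 1 of the 6 libraries. Among all genes tested 8.19% rose and 6.26% fell, so the rises in the lncRNA and histone lists do not stand out from the tested genes.

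Of 23 tested cadherins and protocadherins, which hold cells together, 9 fell and 2 rose (median log2 -0.10), and 3 fell and 1 rose among those above 1 FPKM. Over all genes tested 6.26% fell and 8.19% rose. In the longest of 10 bins by gene body length the shares were 21.2% and 11.9%. Cdh7 and Cdh10 lie in that bin, and the part of length in these counts was not tested. Cdh7 had 38.87, 39.03 and 41.6 CPM in CFC10 and 69.7, 57.8 and 59.4 CPM in naive nuclei (log2 -0.65 ± 0.08, adjusted p = 5.7e-06). Cdh10 had 373, 365 and 343 CPM in CFC10 and 514, 449 and 433 CPM in naive nuclei (log2 -0.37 ± 0.05). Cdh22 and Pcdh1 went the other way, with log2 values of 0.55 ± 0.07 and 0.43 ± 0.06.

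The largest falls were smaller than the largest rises and were led by genes known by a model or clone name. Of the 15 largest, 6 carry a Gm or Rik name, and over all 15 the log2 fold changes ran from -1.01 to -0.71. Gm12371 had 4.63, 8.55 and 7.35 CPM in CFC10 and 18.9, 10.6 and 12.5 CPM in naive nuclei (log2 -1.01 ± 0.18, adjusted p = 4.0e-04). 9130024F11Rik had 40.2, 61.1 and 54.8 CPM in CFC10 and 99.4, 89.6 and 99.6 CPM in naive nuclei (log2 -0.88 ± 0.09, adjusted p = 3.5e-07). Its CFC10 range lay well below its naive range. Vegfc, a growth factor of lymphatic vessels, had 18.9, 16.1 and 15.2 CPM in CFC10 and 35.8, 30.6 and 24.8 CPM in naive nuclei (log2 -0.86 ± 0.12). Zfp46 had 13.1, 17.6 and 13.4 CPM in CFC10 and 28.3, 24.5 and 26.3 CPM in naive nuclei (log2 -0.83 ± 0.10), and Ptgr2, a prostaglandin reductase, had 8.60, 10.7 and 9.36 CPM in CFC10 and 15.6, 15.9 and 15.7 CPM in naive nuclei (log2 -0.71 ± 0.10). The remaining falls were Gm12592 (log2 -0.91), Npcd (-0.87), Dhdh (-0.82), D630023F18Rik (-0.80), Gm36560 (-0.78), Gm15860 (-0.75), Usp43 (-0.75), Krcc1 (-0.73), Acr (-0.72) and Gstt1 (-0.71). Npcd lies over Nptxr and Cbx6 on the same strand, so its reads could not be told apart from theirs.

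**Figure D3:**
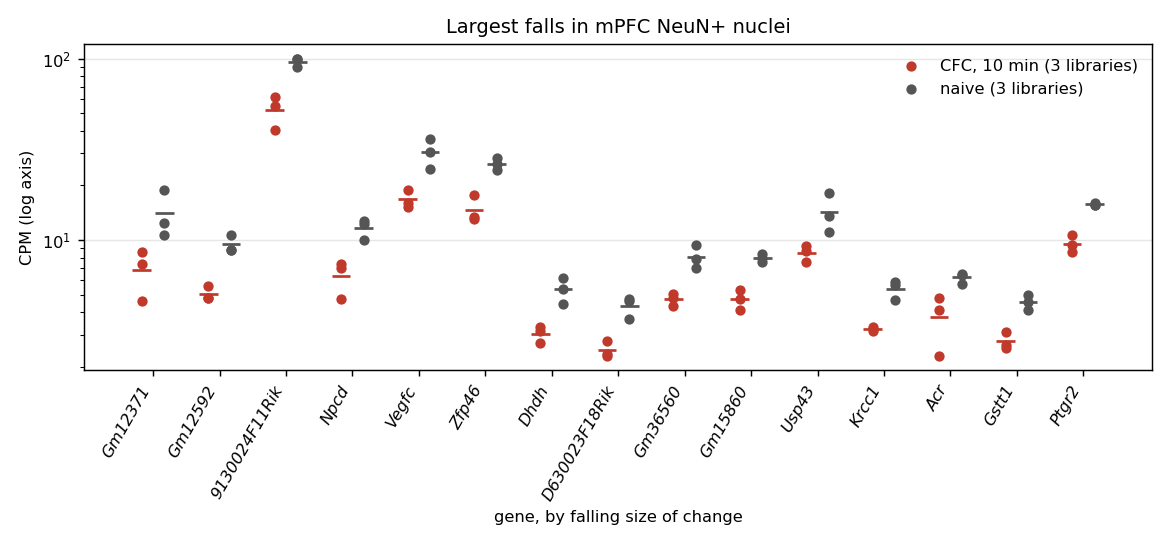
Level of the 15 genes with the largest falls in mPFC NeuN+ nuclei, in CPM on a log axis. Each point is 1 library (3 CFC10, 3 naive) and the bar is the mean, and in each gene all CFC10 points lie below all naive points, with log2 fold changes from -1.01 (Gm12371) to -0.71 (Ptgr2).

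Some markers of cortical layers changed. Of 6 upper layer markers 3 fell and none rose: Calb1 had 13.1, 17 and 17.3 CPM in CFC10 and 27.1, 22.9 and 19.6 CPM in naive nuclei (log2 -0.54 ± 0.11), Otof had a log2 value of -0.54 and Rasgrf2 of -0.31, while Cux1, Cux2 and Lamp5 had values of 0.06, 0.00 and 0.04. Rorb, a factor of layer 4 that also sits in the clock list, had 65.3, 75.9 and 92.8 CPM in CFC10 and 128, 107 and 110 CPM in naive nuclei (log2 -0.56 ± 0.09). Rorb and Grm3 are not particular to neurons here. They averaged 580 and 1804 CPM in naive NeuN- nuclei, against 115 and 576 CPM in naive NeuN+ nuclei. Of 9 tested deep layer markers 2 rose (Syt6 by 0.39, Bcl11b by 0.33) and Etv1 fell by 0.54 on the log2 scale, with a median of 0.28 over the list. The part of these layer markers in the values of Grm2, Grm3, the cadherins and the other falls was not tested.

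The called genes differed from the tested genes in length, which enters the FPKM filter but not the test itself. The median gene body was 27378 bases among genes that rose, 78506 among genes that fell and 19093 over all genes tested. The 68 genes that rose by more than 2-fold were short, with a median of 5072 bases and 4 merged exons, against 8 merged exons over all genes tested. Their naive median was 1.44 CPM. With no filter their median length was 8578 bases. When the tested genes were put into 10 bins by length, the longest bin (above 124330 bases) held 276 falls (21.2%) and 155 rises (11.9%) among 1299 genes, while bin 4 (7736 to 12765 bases) held 32 falls (2.47%) and 110 rises (8.47%) among 1298. The share of falls thus climbed with length much more steeply than the share of rises. The median log2 fold change over all genes of a bin was -0.08 in the shortest bin, 0.06 in bin 3 and -0.04 in the longest. Longer genes carried more counts, with a naive median of 51.6 CPM among genes that fell, 30.1 CPM among genes that rose and 14.6 CPM over all genes tested, and the part of that depth in the shares was not tested.

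**Figure D4:**
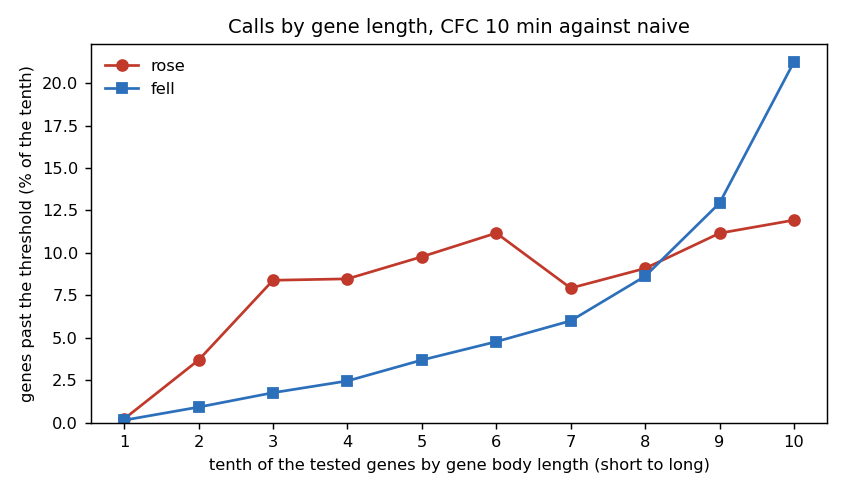
Share of tested genes that rose or fell in mPFC NeuN+ nuclei 10 minutes after CFC, in percent, by bin of gene body length from short (1) to long (10). The share that fell climbs to 21.2% in the longest bin, while the share that rose stays between 7.93% and 11.9% from bin 3 on.

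γH2AX, the phosphorylated histone that flanks DNA double-strand breaks, had been mapped in mPFC nuclei pooled from several mice, 30 minutes after CFC and in naive mice, and the deposited list joins both conditions in 260 peaks annotated to 283 genes as read here. That list may not hold every peak the study called, so a gene without a peak in it cannot be said to lack one, and the shares describe this list only. These peaks come from other samples and were not used to call genes. Of the genes that rose 128 of 1063 carried a peak (12.04%, 95% Wilson interval 10.2 to 14.1%), against 5 of 813 that fell (0.615%, 0.263 to 1.43%) and 273 of 12987 tested (2.10%). Among the rises of more than 2-fold the share was 17 of 68 (25%). Of the 273 tested genes with a peak, 128 rose and 5 fell. Arc (peak at chr15:74667117-74673281), Npas4 (chr19:4982543-4990770), Egr1, Egr3, Junb and 1700016P03Rik were the 6 of the 15 largest rises with a peak in this list, and none of the 15 largest falls was in it. Genes that rose also had a higher naive level (median 1.05 FPKM) than all genes tested (0.725 FPKM), while the rises of more than 2-fold had a lower one (0.335 FPKM). The part of the naive level in the shares was not tested. The 5 fallen genes with a peak were Celf2, Pcsk2, Arpp21, Rsrp1 and C130071C03Rik, with log2 values of -0.24 to -0.16. Among genes above 1 FPKM the shares were 19.8% of the risen, 2.46% of the fallen and 4.79% of the tested genes, and 41.7% of the rises of more than 2-fold.

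Several of the largest rises were lower again at 30 minutes. They were chosen for their rise in the same CFC10 libraries, which by itself favours lower values at 30 minutes. CFC30 and CFC10 libraries were compared directly: 98 of 12987 genes were higher at 30 minutes (0.755%) and 69 were lower (0.531%). Of the 1063 genes that rose at CFC10, 42 were higher at 30 minutes (3.95%) and 33 were lower (3.10%). Fosb had 2.41, 1.16 and 2.09 CPM at CFC30 and 9.59, 8.55 and 7.89 CPM at CFC10 (log2 -2.20 ± 0.19, adjusted p = 2.5e-07). Npas4 had 14.8, 11.6 and 16.4 CPM at CFC30 and 44.0, 45.0 and 46.3 CPM at CFC10 (log2 -1.65 ± 0.12). Fos (log2 -2.06 ± 0.21), Btg2 (-1.59 ± 0.17), Junb (-1.32 ± 0.14), Egr1 (-1.16 ± 0.11), Arc (-1.02 ± 0.09), Trib1 (-0.66 ± 0.13), Dusp5 (-0.64 ± 0.12) and Nr4a1 (-0.49 ± 0.07) were lower as well. In the other direction Homer1 had 755, 755 and 685 CPM at CFC30 and 462, 432 and 494 CPM at CFC10 (log2 0.68 ± 0.06, adjusted p = 2.5e-07). The miRNA host 1700016P03Rik (log2 0.14 ± 0.10), Sik1 (-0.18 ± 0.17), Fosl2 (-0.27 ± 0.14), Egr3 (-0.27 ± 0.09) and Tiparp (-0.10 ± 0.13) did not pass this test. None of the 15 largest falls passed it either. The counts depended on single libraries: without replicate 1 of CFC10, 270 genes were higher and 200 lower at 30 minutes, and without replicate 2 of CFC10, 20 and 27. Without replicate 1 or 2 of CFC30 they were 37 and 26, or 44 and 28, and without replicate 3 of CFC10, 39 genes were lower.

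The change after CFC was then compared between NeuN+ and NeuN- nuclei of the mPFC, as the difference of the 2 log2 fold changes in 1 fit. Of 16559 genes tested, 205 had a more positive change in NeuN+ nuclei (1.24%) and 106 a more negative one (0.640%). Arc had 12.1, 14.2 and 13.5 CPM in CFC10 NeuN- nuclei and 6.86, 5.83 and 6.81 CPM in naive NeuN- nuclei, so that its change there (log2 1.03 ± 0.15) was smaller by 2.77 ± 0.24 than in NeuN+ nuclei (adjusted p = 9.3e-07). Btg2 had 7.72, 7.36 and 6.97 CPM in CFC10 and 4.25, 5.21 and 6.05 CPM in naive NeuN- nuclei, and its change was larger in NeuN+ nuclei by 2.71 ± 0.31. Junb and Nr4a2 differed by 2.49 ± 0.35 and 1.92 ± 0.42. Other ERGs changed in both fractions, and for Fos (difference 1.18 ± 0.80), Egr1 (1.27 ± 0.42) and Nr4a1 (0.36 ± 0.19) the difference did not pass the test. Hspa8, with log2 0.91 in NeuN+ and 0.64 in NeuN- nuclei, likewise had a difference of 0.26 ± 0.14 that did not pass. Tnfaip6, a secreted hyaluronan-binding protein, had 1.98, 0.95 and 0.696 CPM in CFC10 and 0, 0.0830 and 0.0807 CPM in naive NeuN+ nuclei, against 63.2, 74.7 and 69.7 CPM in CFC10 and 56.3, 45.0 and 54.3 CPM in naive NeuN- nuclei. Its difference of 3.79 ± 0.75 rests on 1 or no read in each naive NeuN+ library. Tnfaip6, like Vstm4 (-1.49 ± 0.34), Dbx2 (-1.33 ± 0.34), Rtkn2 (-1.07 ± 0.20) and Palld (-0.98 ± 0.23) among the most negative differences, lay under the filter in NeuN+ nuclei and entered this test only through its level in NeuN- nuclei. 1190002N15Rik, which passed the filter in both fractions, had 12.6, 15.3 and 13.4 CPM in CFC10 and 22.7, 21.2 and 17.9 CPM in naive NeuN+ nuclei but 21.6, 25.1 and 23.0 CPM in CFC10 and 16.2, 15.9 and 18.2 CPM in naive NeuN- nuclei (-1.07 ± 0.14, adjusted p = 2.8e-04). Without CFC10 replicate 1 or naive replicate 1 of the NeuN+ nuclei, 120 and 123 genes had a more positive change and 59 and 59 a more negative one, and the count of more negative changes was 52 without naive replicate 2, 64 without naive replicate 1 and 69 without CFC10 replicate 3 of the NeuN- nuclei.

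The same difference between mPFC and hippocampal NeuN+ nuclei gave 71 genes of 13756 with a more positive change in the mPFC (0.516%) and 33 with a more negative one (0.240%). Btg2 had 6.23, 4.85, 4.77 and 4.98 CPM in CFC10 and 2.50, 2.10, 2.29 and 2.37 CPM in naive hippocampal nuclei, a change of 1.14 ± 0.14 that was smaller by 2.09 ± 0.30 than in the mPFC (adjusted p = 5.0e-04). Arc (difference 1.60 ± 0.26), Egr3 (1.54 ± 0.21), Fosl2 (1.47 ± 0.23) and Dusp5 (1.36 ± 0.25) followed, and Homer1, at a log2 change of 0.22 ± 0.07 in the hippocampus that did not pass the test, differed by 0.72 ± 0.11. Npas4 had 18, 15.9, 15.7 and 17.6 CPM in CFC10 and 3.50, 3.40, 4.09 and 2.53 CPM in naive hippocampal nuclei, and its change differed by only 0.29 ± 0.23 (adjusted p = 0.81). Fos differed by 0.35 ± 1.18 and Egr1 by 0.77 ± 0.30, and neither passed. Among the more negative changes, the serotonin receptor gene Htr1a had 0.910, 1.29 and 1.01 CPM in CFC10 and 3.10, 2.24 and 1.69 CPM in naive mPFC nuclei, against 3.45, 3.66, 3.58 and 3.45 CPM in CFC10 and 2.67, 3.28, 2.29 and 2.96 CPM in naive hippocampal nuclei (difference -1.40 ± 0.31). Glis3 (-0.89 ± 0.20), Smoc2 (-0.84 ± 0.15), Grm2 (-0.80 ± 0.16) and Gm12592 (-0.76 ± 0.19) were the next. Glis3 lay under the filter in mPFC NeuN+ nuclei and entered this test only through its level in the hippocampus. The regions were prepared with different versions of the library kit, so region and kit cannot be told apart. Without naive replicate 1 of the mPFC the counts were 29 and 10, without CFC10 replicate 1 they were 47 and 19, without CFC10 replicate 3 they were 41 and 14, and without naive replicate 3 of the mPFC 42 genes had a more positive change. The count of more negative changes was 20 without CFC10 replicate 1 and 19 without naive replicate 4 of the hippocampus.

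**Figure D5:**
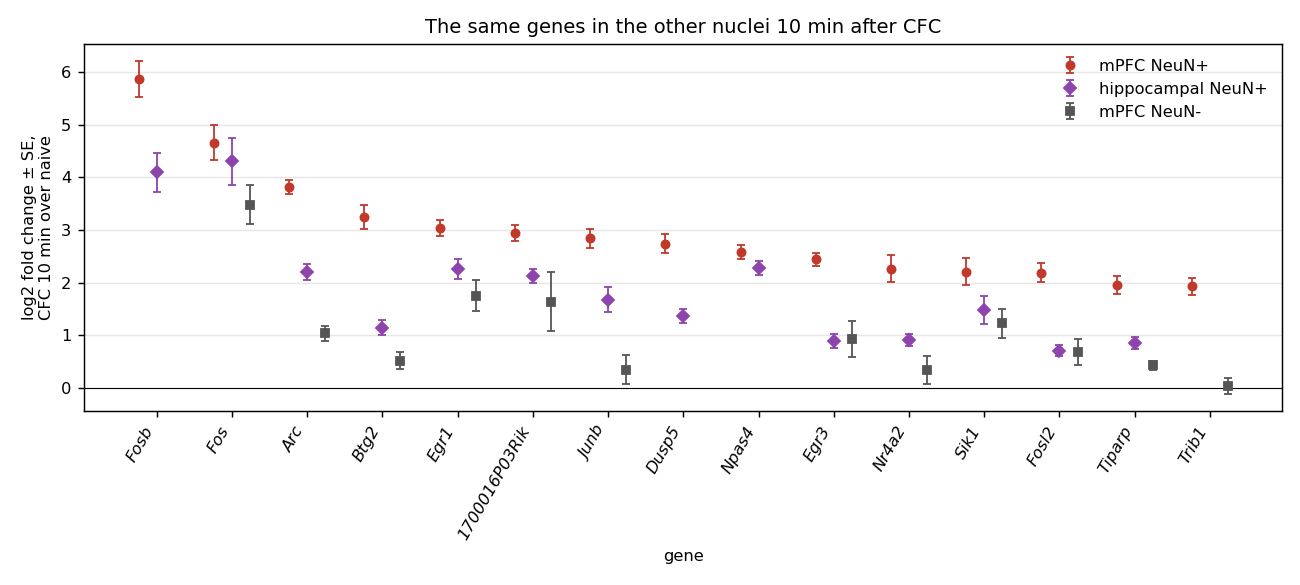
Log2 fold change of CFC10 over naive, with its SE, for the 15 largest rises of mPFC NeuN+ nuclei (3 against 3 libraries), in hippocampal NeuN+ nuclei (4 against 4) and in mPFC NeuN- nuclei (3 against 3). A missing point is a gene under the expression filter there, and the values for Arc are 3.82 in mPFC NeuN+ nuclei, where these genes were chosen for their size of change, against 2.20 in the hippocampus and 1.03 in NeuN- nuclei.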

How the data were processed

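Nuclei were fixed, sorted on NeuN and decrosslinked, and stranded libraries of their total RNA were made with a low-input SMARTer Pico kit. The authors deposited raw counts for each gene and library: reads were trimmed (Trimmomatic), aligned to GRCm38 (HISAT2), filtered (Picard, SAMtools) and assigned to exons and introns alike (featureCounts). Versions and the strand setting are not given in the sources used here. The authors also deposited γH2AX peaks as positions with a gene assignment and no score.

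Of 53749 gene IDs, 53682 matched GENCODE vM21, and the other 67 took at most 0.038% of the counts of a library. No pair among 30 libraries was identical. CPM divides by the library total and FPKM also by gene body length. Genes averaging more than 0.2 FPKM in 1 or more groups of the fit, CFC30 groups included, entered the test. That test was edgeR 4.0.16 in R 4.3.3 (quasi-likelihood, TMM, Benjamini-Hochberg, threshold 0.05). The SE is the log2 value over the root of F. A single fit held the 9 mPFC NeuN+ libraries, and contrasts in joint fits gave the differences between nuclei. The effects at CFC10 and CFC30 share naive libraries. Alternatives were DESeq2 1.42.0, other scalings and filters, a replicate block and the omission of each library. The code was tested on simulated data (seed 1). Tables used limma 3.58.1, Python 3.11.15, pandas 2.3.3, NumPy 2.4.6 and SciPy 1.17.1. Marker levels are means of log2(FPKM + 0.1).

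Members, lists and naming rule were chosen with earlier results of these data known. The rule named the 15 largest rises and falls (called, no overlap of CPM between groups, a mean of 50 counts or more in one group), the 4 smallest adjusted p in each of 23 lists, the 5 largest differences each way between nuclei, and genes discussed in the paper. Other list members were picked after their values were seen. Some genes of the lists are not reported here.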

Additional observations from a re-analysis of the deposited data

Results flagged for a closer look

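Genes whose change after CFC differed between mPFC NeuN+ nuclei and the other nuclei by a test of the difference itself are given here with the difference of log2 fold changes. Against mPFC NeuN- nuclei the differences were 3.79 for Tnfaip6, 2.77 for Arc, 2.71 for Btg2, 2.49 for Junb and 1.92 for Nr4a2, and in the other direction -1.49 for Vstm4, -1.33 for Dbx2, -1.07 for Rtkn2, -1.07 for 1190002N15Rik and -0.98 for Palld. Tnfaip6, Vstm4, Dbx2, Rtkn2 and Palld lay under the expression filter in NeuN+ nuclei and were tested only through their level in NeuN- nuclei. Of these genes, 1190002N15Rik passed the test in both fractions with opposite signs, at log2 values of -0.58 in NeuN+ and 0.48 in NeuN- nuclei.

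Against hippocampal NeuN+ nuclei the differences were 2.09 for Btg2, 1.60 for Arc, 1.54 for Egr3, 1.47 for Fosl2 and 1.36 for Dusp5, and in the other direction -1.40 for Htr1a, -0.89 for Glis3, -0.84 for Smoc2, -0.80 for Grm2 and -0.76 for Gm12592. Glis3 was likewise tested only through its level in the hippocampus. The Htr1a call within the mPFC was lost without naive replicate 1 (log2 -0.86, adjusted p = 0.083).

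In the hippocampal groups of 4 libraries, the gap between 1 library and its nearest neighbour, divided by the range of the group, passed Dixon's 95% critical value for Btg2 in CFC10 (6.23 CPM), for Fosl2 in naive (12.2 CPM) and for Grm2 in naive nuclei (15.1 CPM). By that threshold chance gives about 1 such library in 20 groups, and 20 groups were examined.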

How the results depend on the processing

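Of 115 named genes tested between CFC10 and naive mPFC NeuN+ nuclei, 104 were called and 92 of these were called with the same sign under every alternative that gave an adjusted p, among them all 15 largest rises and 14 of the 15 largest falls. Those that lost their call included Acr, Scn1a, Scn3a, Camk2g, Nrgn, Atr, Atm, Hist2h2bb, Htr1a, Hspa5 and Calr, each under at least 1 alternative, and the cause was not tested. Leaving out 1 library gave 715 to 948 genes higher and 477 to 732 lower at CFC10 against naive, 20 to 270 higher and 26 to 200 lower at CFC30 against CFC10, 120 to 271 and 52 to 114 for NeuN+ against NeuN- nuclei, and 29 to 99 and 10 to 33 for mPFC against hippocampus. With genes above 1 FPKM, where fewer genes are tested, 552 were higher and 448 lower at CFC10 against naive, 60 higher and 44 lower at CFC30 against CFC10, and 46 and 17 differed for mPFC against hippocampus. With no filter, where more genes are tested, 224 were higher and 151 lower at CFC30 against CFC10, 395 and 268 differed for NeuN+ against NeuN- nuclei, and 210 and 84 for mPFC against hippocampus. DESeq2, which the study used, called 724 genes higher and 595 lower at CFC10 against naive. The fit of the naive and CFC10 libraries alone called 873 higher and 728 lower. DESeq2 called 34 genes lower at CFC30 against CFC10 and 320 with a more positive change in NeuN+ than NeuN- nuclei. Scaling by library totals alone called 115 lower at CFC30, and the cause of these differences was not tested. Deviations of same-numbered CFC10 and naive NeuN+ libraries of the mPFC correlated at -0.004, 0.034 and 0.11, and those of the other pairs at -0.084 to 0.049. With 3 libraries in a group this cannot settle whether replicate numbers pair the samples. Pairing of same-numbered NeuN+ and NeuN- libraries was not examined, and the fits treated them as independent. With the replicate block, 1072 genes were higher and 813 lower at CFC10 against naive. Low counts limit what can be said of Fosl1, Atf3 and Klf4, and of short genes, of which few were called.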
